A study of Mus musculus with 6 samples.

Results

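The RAB GTPase genes of mouse intestinal organoids were taken by their symbols, which begin with Rab, go on with a number and may end in a letter from a to d and a digit. The deposited table held 59 such genes among 52249, and 46 of the 59 had enough counts to be tested, among 10687 tested genes in all. Intestinal organoids are epithelial cultures that grow as small hollow structures. All 6 libraries were labelled as Apc-knockout, the loss of a tumour suppressor that restrains WNT signalling. In 3 of them, labelled Apc-knockout and called control here, the labels name no other change. The other 3, labelled Apc-knockout with IGF2BP3 OE and called OE-labelled here, were said to overexpress an RNA-binding protein as well. The title of the series links IGF2BP3 to MYC and to uneven growth of colorectal adenoma cells. How the knockout and the overexpression were made, and whether replicates came from separate cultures, is not given in the sources used here. The p-values therefore measure the spread between these libraries, which may be technical.

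RAB proteins are small GTPases that act as membrane switches. Exchange factors load them with GTP on a particular membrane, where they recruit motors, tethers and other effectors. GTPase-activating proteins then return them to the GDP form, which a GDP dissociation inhibitor lifts off the membrane. Each compartment is marked by its own RAB proteins, from RAB1 between the endoplasmic reticulum and the Golgi to RAB5 on early endosomes and RAB7 on late ones. In intestinal epithelium RAB8A and RAB11A carry cargo to the apical brush border, and RAB25 is an epithelial relative of RAB11A.

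Lipid groups added to cysteines at the end of the protein anchor a RAB in the membrane. The ends of the coding sequences show how near-identical relatives differ there, and whether the genes that changed share a form of this anchor. The last 10 codons before the stop are given 5′ to 3′ for genes described below, from GENCODE M21 on GRCm38, with cysteine codons in capitals.

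Rab5a: cagccagccagaagccagTGTTGTagtaac

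Rab5b: cagcagaacaagagccagTGTTGTagcaac

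Rab11a: aagccaaaggtgcagTGCTGTcagaacatc

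Rab11b: cccaacaagctgcagTGCTGCcagagcctg

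Rab25: ggggaaaagagggccTGTTGCatcagcctc

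Rab8a: aggaccagcttcttccggTGCagtctcctg

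Rab13: gacaagaagaagaacaagTGCttgttaggc

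Rab28: cctcctcggagctccatgTGTgcagtgcag

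Rab40c: aacTGCtctcggagcaacTGCaagatctcc

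All 59 genes had a complete coding sequence in the annotation. Among the last 5 codons, 50 genes had 2 cysteine codons and 9 had 1. Both forms occurred among the 14 genes that passed the test described below: 10 had 2 cysteine codons and 4 had 1. Those 4 were Rab8a, Rab13, Rab28 and Rab40c. Rab5a, Rab5b and the 3 RAB11 relatives shown had a pair of neighbouring cysteine codons.

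A second stretch separates Rab25 from its relatives. The codons GAC or GAT, then ACN, GCN and GGN, form a box that lies next to the GTP in RAB proteins, and the codon after it usually encodes a glutamine that takes part in GTP hydrolysis. The box was searched in frame, and it is shown for the 3 genes of the RAB11 group with the codon before it, the codon after it in capitals and 1 codon more.

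Rab11a: tgggacacagcagggCAGgag

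Rab11b: tgggacactgctggcCAGgag

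Rab25: tgggacacggccggcCTGgag

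The box occurred once in 52 of the 59 genes, and in 49 of these a glutamine codon (CAA or CAG) followed it. Rab25 had the leucine codon CTG there, at codon 71. Rab20 had CGG and Rab24 had TCC at this place. The 7 genes in which the box was not found were Rab28, Rab29, Rab32, Rab38, Rab40b, Rab40c and Rab7b.

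Gene expression was read by 3′ mRNA sequencing from 500 ng of total RNA per library. Libraries held 2180116 to 2519917 counts, and a count of 0 allows up to 3 counts, or 1.18 to 1.41 CPM (the count relative to the library's TMM-scaled size), for counting error only. Because each transcript is read near its polyadenylated end, a count does not grow with transcript length, and CPM of different genes are set side by side below on that basis. The library names put the controls in 1 library series and the OE-labelled libraries in another, so library series and group cannot be told apart. Igf2bp3 gave 1 count or none in every library and thus no check of the label. Apc had 164 to 182 counts in the controls and 148 to 158 in the OE-labelled libraries. No library without the knockout was analysed here, and where the gene was altered is not given, so they do not check the label either. The first principal component held 56.4% of the variance and separated the groups. The biological coefficient of variation was 3.15% among controls and 17.1% among OE-labelled libraries. Epithelial markers were present in every library, with 9 of 9 tested, 5 called higher and 1 lower (over all tested genes 16.5% and 12.7%, by the test described below), and a summed level of 4275 to 4503 CPM in the controls against 5597 to 6330 CPM. Goblet cell markers moved further, from 596.2 to 622.1 CPM up to 1279 to 1494 CPM, with 3 of the 6 tested members of that list of 8 called higher. Of the enteroendocrine markers Chga, Cck, Gcg, Neurod1 and Neurog3 were at 0 in all libraries, and the list summed to at most 0.938 CPM. Fibroblast, endothelial and enterocyte lists each summed to under 1.41 CPM in every library. In these bulk libraries fewer cells of a type and less RNA per cell cannot be told apart.

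In sum, RAB transcripts took a larger part of the OE-labelled libraries. The genes called higher were mainly those of endosomal recycling and of transport to the cell surface. Much of the rise in the sum lay in Rab11a (mean 142.0 to 251.7 CPM), Rab5c (85.29 to 181.9 CPM) and Rab25 (134.1 to 229.1 CPM). Among the sites of action, only the endoplasmic reticulum and Golgi group had a lower mean sum, with 779.9 CPM in the controls and 761.9 CPM in the OE-labelled libraries. Summed over all 59 genes, RAB transcripts reached 2900, 2942 and 2909 CPM in the controls and 3492, 3434 and 3246 CPM in the OE-labelled libraries. As a share of all counts this was 0.282%, 0.288% and 0.285% against 0.348%, 0.347% and 0.332%. The ranges did not overlap. Of the 46 tested genes, 14 passed an adjusted p of 0.05 in edgeR's quasi-likelihood test, with p-values adjusted by the Benjamini-Hochberg method over all 10687 tested genes. That is 30.4% of the RAB genes, where 29.2% of all tested genes passed, so the number of RAB genes called was near the background. Of the 46, 12 or 26.1% were higher in the OE-labelled libraries, where 16.5% of all tested genes were. Only 2, or 4.35%, were lower, beside 12.7% of all tested genes. The ranges of the 2 groups did not overlap in 19 RAB genes (41.3%, against 45.7% of all tested genes). Of these, 15 lay above the controls (32.6%, against 25.3%) and 4 below (8.7%, against 20.5%). The median log2 fold change (log2FC, OE-labelled minus control) was 0.19 over the 46 RAB genes and 0.04 over all tested genes. The RAB median was 0.10 without OE-labelled replicate 1, 0.11 without OE-labelled replicate 2 and 0.05 with an offset for exonic length. Leaving out control replicate 1, 2 or 3 lowered the number of RAB genes called to 8, 8 and 7. Over all tested genes the calls fell as well, from 3118 to 1893, 1837 and 1748. Without OE-labelled replicate 1 the RAB genes called numbered 11, with 9 higher and 2 lower, and all genes called numbered 3345.

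**Figure D1:**
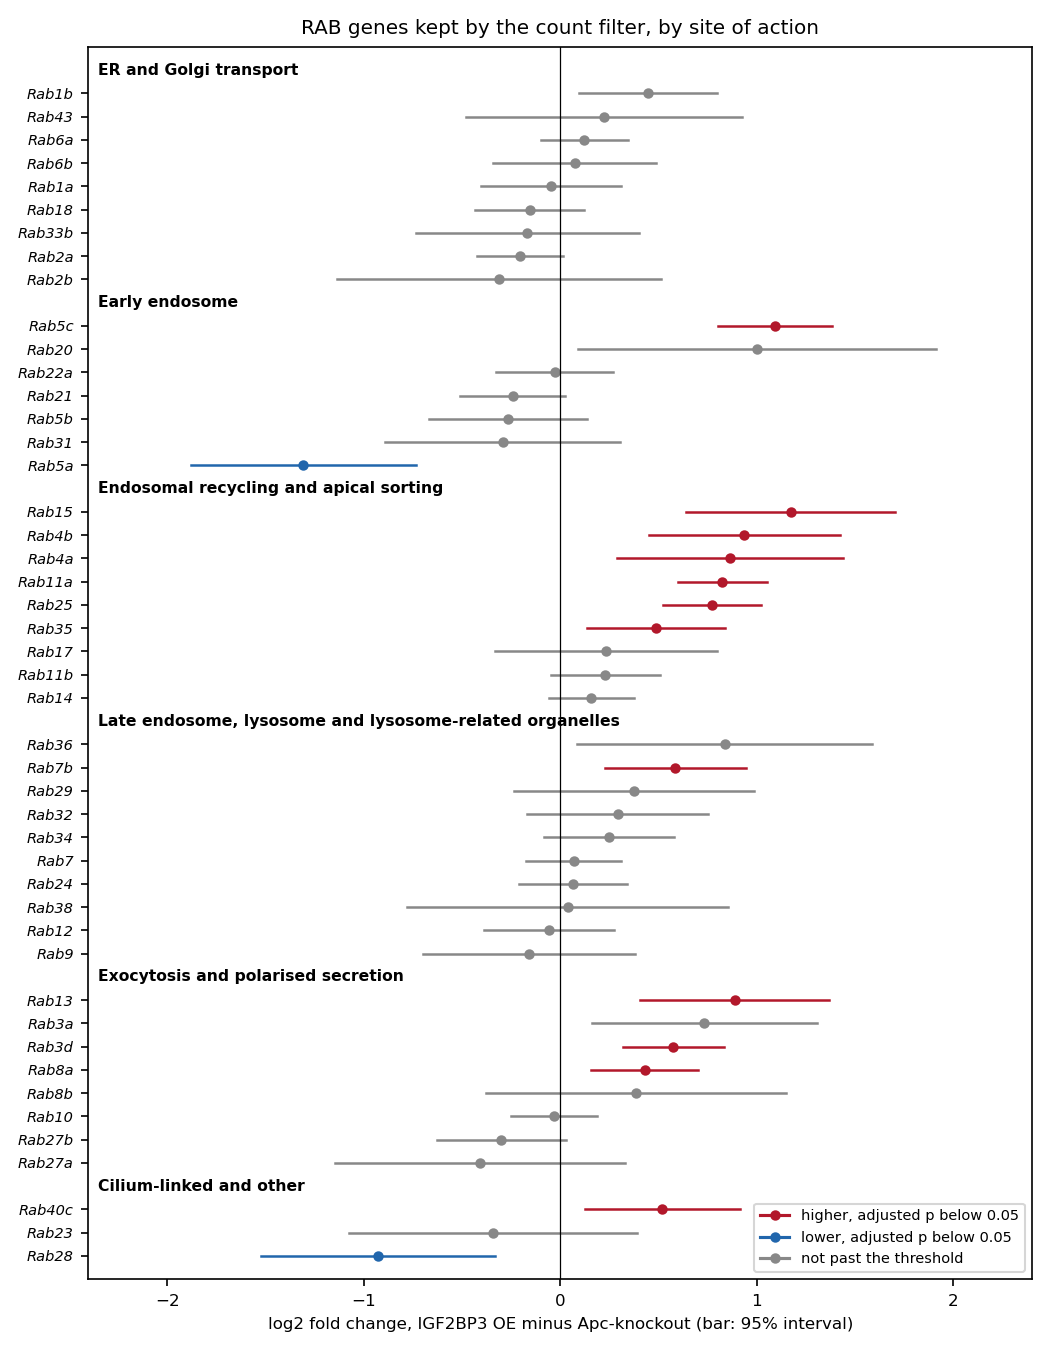
Log2 fold change (OE-labelled minus control, 3 libraries each) of the 46 tested RAB genes, grouped by where the proteins act; bars are 95% intervals, without adjustment for the number of genes. The recycling group holds 6 of the 12 genes called higher, and no gene of the endoplasmic reticulum and Golgi group was called. Over all tested genes 16.5% were called higher and 12.7% lower.

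Endosomal recycling and apical sorting held the most calls of the 6 sites of action. Here 6 of its 9 genes were called higher and none lower, beside 16.5% and 12.7% of all tested genes. The median log2FC was 0.77. Of these calls, those of Rab4a and Rab35 were lost with an offset for GC content and without control replicate 1, 2 or 3. Summed over the 9 genes the level was 814.1, 782.0 and 807.9 CPM in the controls and 1170, 1107 and 1039 CPM in the OE-labelled libraries. Rab11a, which directs recycling endosomes and apical delivery (chromosome 9, 64715299 to 64737758, minus strand, GRCm38), was at 149, 135 and 143 CPM in the controls and 261, 255 and 239 CPM in the OE-labelled libraries. Each OE-labelled value exceeded each control value. Its mean went from 142.0 ± 7.02 to 251.7 ± 11.7 CPM (SD, n = 3 each), a log2FC of 0.83 (SE 0.10, 95% interval 0.60 to 1.05, edgeR adjusted p = 0.000232). Rab11a shares its strand with a predicted gene that overlaps it, Gm47308, and how counts were divided there is not given.

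Rab25, the epithelial relative with the leucine codon after the box (chromosome 3, 88542029 to 88548300, minus strand), had 133, 128 and 141 CPM in the controls and 260, 211 and 217 CPM in the OE-labelled libraries. The highest of the 6 values belonged to OE-labelled replicate 1, and the groups did not overlap. The mean was 134.1 ± 6.5 against 229.1 ± 26.7 CPM (SD, n = 3), a log2FC of 0.77 (SE 0.12, 95% interval 0.52 to 1.02, edgeR adjusted p = 0.00061). Rab11b, the third member of the RAB11 group, which also serves recycling endosomes, had 66.8, 57.7 and 57.1 CPM in the controls and 77.0, 69.2 and 66.8 CPM in the OE-labelled libraries. Its ranges met at 66.8 CPM and its log2FC of 0.23 (95% interval -0.05 to 0.51) did not pass the test (edgeR adjusted p = 0.199). Summed, the 3 genes went from 336.6 ± 14.6 to 551.8 ± 40.5 CPM (SD, n = 3). Rab11b made up 19.2%, 18% and 16.8% of that sum in the controls and 12.9%, 12.9% and 12.8% in the OE-labelled libraries. Rab25 held nearly the same part in both groups, with 39.9% and 41.4% on average.

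Rab15, which acts between early and recycling endosomes (chromosome 12, 76797960 to 76822908, minus strand), was a rare transcript, with 6.91, 5.63 and 7.37 CPM in the controls and 16.6, 14.9 and 13.5 CPM in the OE-labelled libraries. The lowest OE-labelled value was above the highest control. The log2FC was 1.17 (SE 0.25, edgeR adjusted p = 0.00401), from 6.638 ± 0.903 to 15.03 ± 1.54 CPM (SD, n = 3). On the opposite strand it overlaps Fntb, and whether counting used strand is not given.

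Rab4a and Rab4b, close relatives that act in rapid return of receptors to the surface, were both called higher. Rab4b had 15.2, 18.8 and 11.1 CPM in the controls and 33.0, 24.0 and 29.2 CPM in the OE-labelled libraries, a log2FC of 0.94 (SE 0.22, edgeR adjusted p = 0.00823). Rab4a had 7.37, 7.51 and 7.83 CPM against 17.8, 11.4 and 12.3 CPM, a log2FC of 0.86 (SE 0.26, edgeR adjusted p = 0.0276). Neither gene's ranges overlapped, and OE-labelled replicate 1 was the highest for both. The call of Rab4b was lost without control replicate 3 (0.76, edgeR adjusted p = 0.0509). That of Rab4a was lost without any of the 3 controls (edgeR adjusted p = 0.0883, 0.0871 and 0.0817) and without OE-labelled replicate 1 (0.58, adjusted p = 0.122), and also with DESeq2 (adjusted p = 0.128). Both overlap predicted genes on their own strand, Gm20388 for Rab4a and Gm21983 for Rab4b.

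Rab35, which returns cargo from endosomes to the plasma membrane, had 33.6, 31.9 and 29.0 CPM in the controls and 36.5, 48.0 and 48.2 CPM in the OE-labelled libraries. All 3 OE-labelled values were above the controls, with replicate 1 the closest to them. The log2FC was 0.49 (SE 0.16, edgeR adjusted p = 0.0399), and this call was lost in 15 of 21 other ways of processing. Among them were the removal of control replicate 1, 2 or 3 (edgeR adjusted p = 0.0831, 0.108 and 0.149) and of OE-labelled replicate 2 or 3 (edgeR adjusted p = 0.141 and 0.0775).

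Rab14, which links the Golgi and endosomes, was the most abundant RAB transcript. It had 391, 389 and 403 CPM in the controls and 455, 465 and 402 CPM in the OE-labelled libraries. The last of these fell inside the control range. Its log2FC was 0.16 (95% interval -0.06 to 0.37, edgeR adjusted p = 0.245). With an offset for GC content the estimate became 0.34 and passed (edgeR adjusted p = 0.0415), and with an offset for exonic length it became 0.42 (edgeR adjusted p = 0.0157). Rab17, an epithelial RAB of apical recycling, stayed between 8.44 and 13.4 CPM and had a log2FC of 0.23 (edgeR adjusted p = 0.532).

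**Figure D2:**
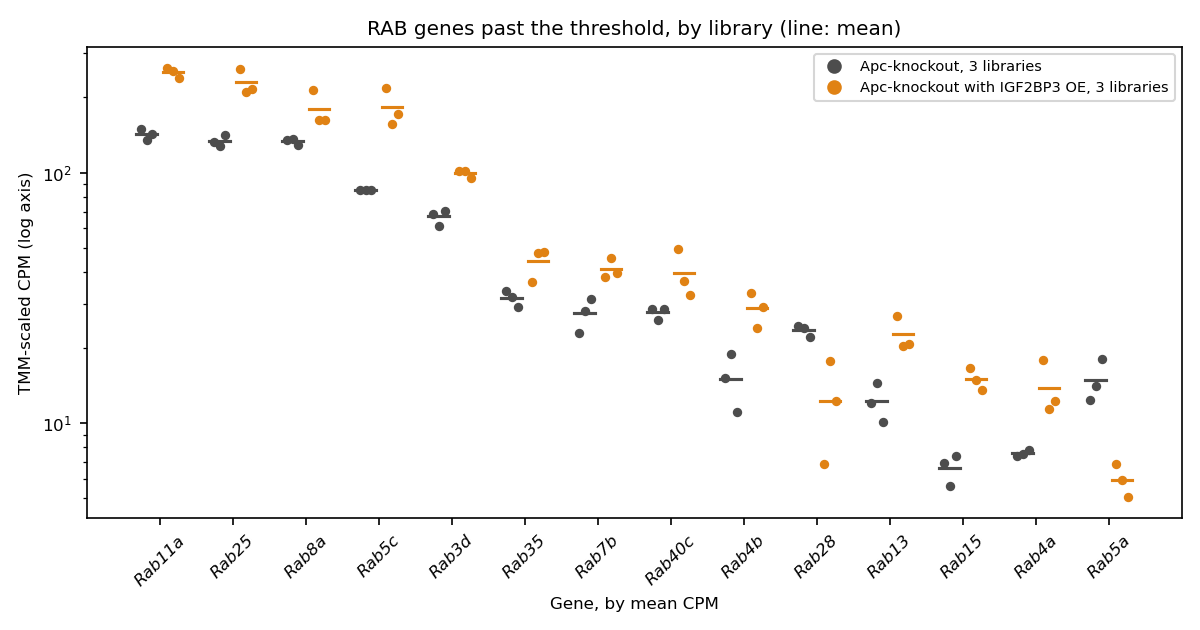
TMM-scaled CPM on a log axis for the 14 RAB genes called, 3 control and 3 OE-labelled libraries, with a line at each group's mean. The groups do not overlap in any of the 14 genes; Rab28 and Rab5a are the 2 that lie lower in the OE-labelled libraries.

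Early endosome genes moved in opposite directions within a single subfamily. RAB5A, RAB5B and RAB5C all govern entry into and fusion of early endosomes. Rab5c (chromosome 11, 100715009 to 100738215, minus strand) had 85.3, 85.4 and 85.2 CPM in the controls and 218, 157 and 172 CPM in the OE-labelled libraries. The controls, with 185, 182 and 185 counts, lay closer together than counting error alone would usually leave them. Their spread is thus no measure of precision. The OE-labelled libraries spread widely above the controls. The mean went from 85.29 ± 0.0791 to 181.9 ± 31.8 CPM (SD, n = 3), a log2FC of 1.09 (SE 0.13, 95% interval 0.80 to 1.38, edgeR adjusted p = 0.000201). Rab5a (chromosome 17, 53479234 to 53507680, plus strand) had 12.4, 14.1 and 18 CPM in the controls and 6.89, 5.9 and 5.07 CPM in the OE-labelled libraries. Every OE-labelled value lay below every control. The fall was from 14.83 ± 2.84 to 5.953 ± 0.908 CPM (SD, n = 3), a log2FC of -1.31 (SE 0.26, 95% interval -1.88 to -0.73, edgeR adjusted p = 0.00336). Rab5a overlaps Pp2d1 and AC165960.2 on the opposite strand. Rab5b had 35.0, 26.7 and 26.7 CPM in the controls and 25.5, 27.1 and 20.7 CPM in the OE-labelled libraries, ranges that overlap, with a log2FC of -0.27 (edgeR adjusted p = 0.299).

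As parts of the RAB5 transcripts, Rab5c took 64.2%, 67.7% and 65.6% in the controls and 87.0%, 82.6% and 86.9% in the OE-labelled libraries. Rab5a went from 9.38%, 11.2% and 13.8% to 2.76%, 3.11% and 2.57%. Their sum was 129.6 ± 3.28 CPM in the controls and 212.3 ± 32.8 CPM in the OE-labelled libraries (SD, n = 3), and of the 3 genes Rab5c alone had a higher mean there. Sums and shares were not tested.

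**Figure D3:**
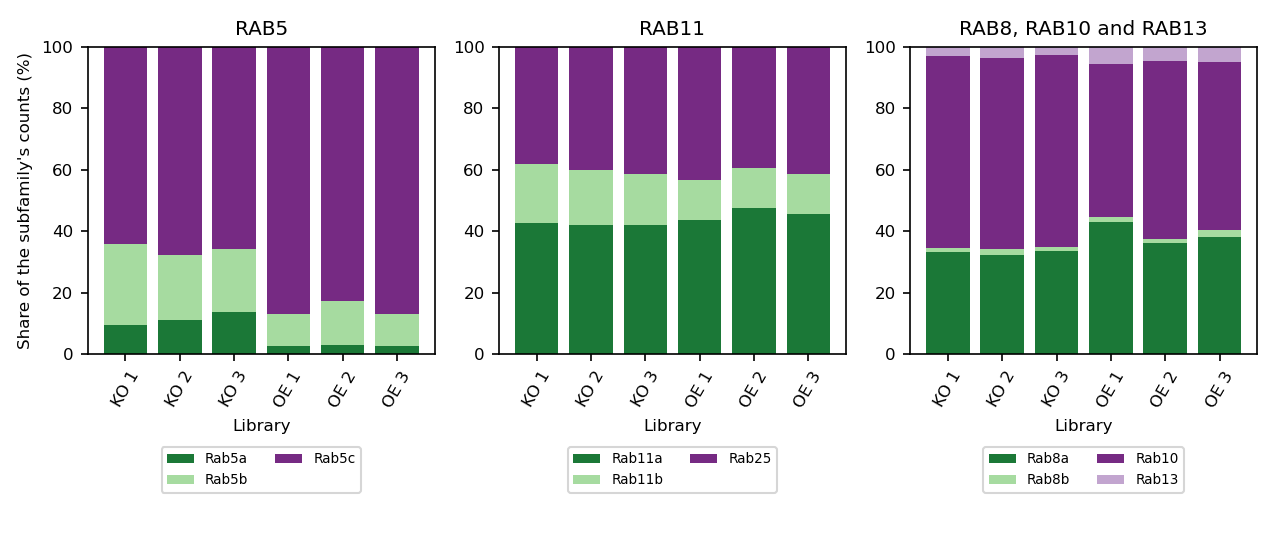
Share of each gene in the counts of its subfamily, in percent, for the 3 control (KO) and 3 OE-labelled (OE) libraries. Rab5c takes 64.2% to 67.7% of the RAB5 counts in the controls and 82.6% to 87.0% in the OE-labelled libraries; Rab10 averages 62.5% of its group in the controls and 54.2% in the OE-labelled libraries.

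The start regions of Rab5a and Rab5c are printed because these relatives changed in opposite directions. Each holds the 250 bases before and 50 after the RefSeq start on GRCm38.p6, 5′ to 3′ on the gene's strand, with the E-box CACGTG, a motif of MYC and related factors, in capitals. The Rab5a window is chr17:53478984-53479283 (plus strand) and the Rab5c window is chr11:100738166-100738465 (minus strand).

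Rab5a: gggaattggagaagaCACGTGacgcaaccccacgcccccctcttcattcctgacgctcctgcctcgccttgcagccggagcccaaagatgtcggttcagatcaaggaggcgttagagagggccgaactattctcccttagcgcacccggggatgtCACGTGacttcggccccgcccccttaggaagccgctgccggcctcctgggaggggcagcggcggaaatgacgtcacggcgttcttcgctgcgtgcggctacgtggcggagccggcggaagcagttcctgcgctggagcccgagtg

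Rab5c: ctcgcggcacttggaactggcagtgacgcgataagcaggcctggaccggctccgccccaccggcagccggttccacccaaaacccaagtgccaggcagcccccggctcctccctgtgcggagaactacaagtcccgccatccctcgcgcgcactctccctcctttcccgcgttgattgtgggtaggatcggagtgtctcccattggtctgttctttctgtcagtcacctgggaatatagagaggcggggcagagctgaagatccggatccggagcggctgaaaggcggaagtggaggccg

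The Rab5a window held the E-box at 2 places and the Rab5c window at none. Start regions were found for 48 of the 59 RAB genes and 12 of the 14 called. The E-box, which reads the same on both strands, was in 6 of the 48 (12.5%), as in 12.5% of 8388 tested genes and 7.15% of all 32851 windows. Rab5a was the only called gene among the 6; the others were Rab20, Rab21, Rab23, Rab24 and Rab27a. The core of the CLEAR element of lysosomal genes, a longer palindrome that contains the E-box, was in Rab5a, Rab21 and Rab24, or 6.25% of the 48, and in 0.858% of tested genes and 0.326% of all windows. CCAAT, searched on both strands, was in 26 of the 48 (54.2%) and in 43.0% of tested genes. TGACGTCA, the cyclic AMP response element, was in Rab5a and Rab25, 4.17% of the 48, and in 3.78% of tested genes. A match is a run of letters and not a binding site.

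The remaining early endosome genes were not called. Rab21, which acts in integrin uptake, had 71.0, 76.0 and 76.9 CPM in the controls and 60.8, 59.4 and 69.3 CPM in the OE-labelled libraries. Its ranges did not overlap, but the log2FC of -0.24 missed the threshold (edgeR adjusted p = 0.16). Rab20, at 1.84 to 5.16 CPM in the controls and 4.23 to 9.72 CPM in the OE-labelled libraries, had a log2FC of 1 (edgeR adjusted p = 0.091). Rab22a and Rab31 lay within overlapping ranges, with log2FCs of -0.03 and -0.29.

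Among the 13 genes of exocytosis and polarised secretion, 8 were tested and 3 were called higher, beside 16.5% of all tested genes. Rab3d, which sits on secretory granules of exocrine cells (chromosome 9, 21907491 to 21918192, minus strand), had 68.7, 61.5 and 70.5 CPM in the controls and 102, 102 and 95.5 CPM in the OE-labelled libraries. The groups were well apart and each was narrow. The mean went from 66.87 ± 4.78 to 99.69 ± 3.59 CPM (SD, n = 3), a log2FC of 0.58 (SE 0.12, edgeR adjusted p = 0.00355). It made up 88.0% of the RAB3 counts in the controls and 86.6% in the OE-labelled libraries. Rab3a, the synaptic vesicle member, had 10.6, 8.91 and 7.83 CPM against 19.9, 12.6 and 13.1 CPM, without overlap, and a log2FC of 0.73 just missed the threshold (edgeR adjusted p = 0.0534). The goblet cell marker sum was 596.2 to 622.1 CPM in the controls and 1279 to 1494 CPM in the OE-labelled libraries. It moved in the same direction as Rab3d and Rab3a, but not as Rab27a and Rab27b, described below. Of its tested markers Tff3, Spink4 and Fcgbp were called higher, and Muc2, Clca1 and Spdef were not called. The part of goblet cells in the result was not tested.

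Rab8a, which carries cargo to the apical membrane and the cilium (chromosome 8, 72161200 to 72183904, plus strand), had 135, 137 and 129 CPM in the controls and 214, 163 and 163 CPM in the OE-labelled libraries. The groups did not overlap, and replicate 1 stood well above the other OE-labelled libraries. Its log2FC was 0.43 (SE 0.13, edgeR adjusted p = 0.0235). Without OE-labelled replicate 1 the estimate was 0.23 (edgeR adjusted p = 0.0935), and the call was also lost without control replicate 1, 2 or 3 (edgeR adjusted p = 0.0862, 0.0775 and 0.106) and with DESeq2 (adjusted p = 0.0696).

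Rab13, a RAB of tight junctions (chromosome 3, 90213695 to 90226385, plus strand), had 12.0, 14.5 and 10.1 CPM in the controls and 26.7, 20.4 and 20.7 CPM in the OE-labelled libraries. The OE-labelled values were all above the controls. The log2FC was 0.89 (SE 0.22, edgeR adjusted p = 0.0105), and it was 0.77 without control replicate 3, which ended the call (edgeR adjusted p = 0.0609).

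Rab10, the close relative of Rab8a and Rab13 that serves basolateral sorting, was the second most abundant RAB transcript. It had 254, 266 and 240 CPM in the controls and 248, 261 and 235 CPM in the OE-labelled libraries. The ranges nearly coincided, and the log2FC of -0.03 had a 95% interval of -0.25 to 0.19 (edgeR adjusted p = 0.842). Its sign turned with the scaling: it was 0.02 with library totals in place of TMM factors. Within the counts of Rab8a, Rab8b, Rab10 and Rab13, Rab10 took 62.6%, 62.4% and 62.5% in the controls and 50.0%, 58.0% and 54.6% in the OE-labelled libraries. Rab8a took 33.2%, 32.2% and 33.6% against 43.1%, 36.2% and 38%.

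The RAB27 pair, which docks granules and exosome-bearing endosomes at the plasma membrane, was not called. Rab27b had 43.8, 52.1 and 55.7 CPM in the controls and 36.1, 45.6 and 41.4 CPM in the OE-labelled libraries, an overlap of the ranges, and a log2FC of -0.30 (edgeR adjusted p = 0.157). Rab27a had a log2FC of -0.41 (edgeR adjusted p = 0.39). Rab8b, at 4.61 to 11 CPM, had a log2FC of 0.38 (edgeR adjusted p = 0.441).

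On the way to late endosomes and lysosomes, 1 of the 10 tested genes was called, beside 29.2% of all tested genes. Rab7b, which links late endosomes to the trans-Golgi network (chromosome 1, 131688695 to 131715439, plus strand), had 23.0, 28.1 and 31.3 CPM in the controls and 38.5, 45.6 and 39.7 CPM in the OE-labelled libraries. The groups did not overlap. The log2FC was 0.59 (SE 0.17, edgeR adjusted p = 0.0197), and the call was lost with DESeq2 (adjusted p = 0.0888), without control replicate 1 or 2 (edgeR adjusted p = 0.0997 and 0.0648) and without OE-labelled replicate 2 (edgeR adjusted p = 0.0918). Rab7, the main RAB of late endosomes and the most abundant of the group, had 108, 114 and 124 CPM in the controls and 127, 120 and 116 CPM in the OE-labelled libraries. Its ranges overlapped, with a log2FC of 0.07 (95% interval -0.17 to 0.31, edgeR adjusted p = 0.679). Rab36 had no overlap between its groups, from 2.77 to 3.69 CPM in the controls and from 4.86 to 5.92 CPM in the OE-labelled libraries, and its log2FC of 0.84 missed the threshold (edgeR adjusted p = 0.0872). The other 7 tested genes, Rab9, Rab12, Rab24, Rab29, Rab32, Rab34 and Rab38, had log2FCs from -0.16 to 0.37 and overlapping ranges.

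None of the 9 tested genes of endoplasmic reticulum and Golgi transport was called, beside 29.2% of all tested genes. The summed level of the group was 779.9 ± 8.8 CPM in the controls and 761.9 ± 55.6 CPM in the OE-labelled libraries (SD, n = 3). Rab6a, which serves transport from and within the Golgi, led the group with 239, 227 and 224 CPM in the controls and 232, 262 and 257 CPM in the OE-labelled libraries. The groups overlapped, and the log2FC was 0.12 (95% interval -0.10 to 0.34, edgeR adjusted p = 0.392). Rab2a, which tethers membranes between the endoplasmic reticulum and the Golgi, had 235, 245 and 237 CPM in the controls and 205, 221 and 196 CPM in the OE-labelled libraries. Here all OE-labelled values were below the controls, but the log2FC of -0.20 did not pass (95% interval -0.42 to 0.02, edgeR adjusted p = 0.149). With an offset for exonic length it was -0.43 and passed (edgeR adjusted p = 0.00987).

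Rab1a and Rab1b, which drive transport into the Golgi, differed in their spread. Rab1a had 135, 129 and 132 CPM in the controls and 89.9, 150 and 143 CPM in the OE-labelled libraries, with replicate 1 below and the other two above the controls. Its log2FC was -0.05 (edgeR adjusted p = 0.855). Rab1b had 23.5, 27.7 and 28.1 CPM against 40.1, 34.2 and 33.8 CPM, without overlap, and its log2FC of 0.45 missed the threshold (edgeR adjusted p = 0.0553). In OE-labelled replicate 1 Rab1b made up 30.8% of the pair's counts, and in the other 5 libraries 14.8% to 19.1%. The other 5 tested genes, Rab2b, Rab6b, Rab18, Rab33b and Rab43, had log2FCs from -0.31 to 0.22 with overlapping ranges.

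Of the 7 genes placed in none of these groups, 3 were tested. Rab28, a ciliary RAB of photoreceptors and sensory neurons (chromosome 5, 41624976 to 41708157, minus strand), had 24.4, 23.9 and 22.1 CPM in the controls and 6.89, 17.7 and 12.3 CPM in the OE-labelled libraries. The OE-labelled values were all lower and far apart from each other. The log2FC was -0.93 (SE 0.27, edgeR adjusted p = 0.0235), and the call was lost without control replicate 1, 2 or 3 (edgeR adjusted p = 0.0798, 0.0766 and 0.0648). Rab40c, whose protein joins a ubiquitin ligase (chromosome 17, 25882114 to 25919727, minus strand), had 28.6, 25.8 and 28.6 CPM in the controls and 49.4, 37.0 and 32.6 CPM in the OE-labelled libraries. The groups did not overlap, and its log2FC was 0.52 (SE 0.18, edgeR adjusted p = 0.0483). Among the 15 of 21 other ways of processing that ended this call were the removal of control replicate 1, 2 or 3 (edgeR adjusted p = 0.113, 0.156 and 0.115) and of OE-labelled replicate 1 or 2 (0.28 and 0.55, edgeR adjusted p = 0.233 and 0.0971). It overlaps 3 predicted genes on the opposite strand. Rab23, a regulator of hedgehog signalling, had 5.53 to 8.91 CPM in the controls and 3.65 to 7.61 CPM in the OE-labelled libraries, a log2FC of -0.34 (edgeR adjusted p = 0.475).

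The 13 genes that were not tested had at most 9 counts in any library. Rab3c, Rab9b and Rab39 had no count at all, and the others were Rab3b, Rab19, Rab26, Rab30, Rab33a, Rab37, Rab39b, Rab40b, Rab42 and Rab44. Several of these, such as the RAB3 members, Rab26 and Rab37, are known from neurons and other secretory cells. At the other end, 37 RAB genes averaged at least 10 CPM over the 6 libraries and 11 at least 100 CPM.

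The OE-labelled libraries varied more among themselves than the controls. The coefficient of variation of CPM had a median of 9.3% over the 46 tested RAB genes in the controls and 15.5% in the OE-labelled libraries, and it was larger in the latter for 30 of the 46. OE-labelled replicate 1 was the highest of its group in 9 of the 12 genes called higher and in 23 of the 46 tested.

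Fold changes followed the base composition of the transcripts. Over the 46 tested RAB genes Spearman's rho between log2FC and the GC content of the longest transcript was 0.62, and over 10679 tested genes it was 0.37. These are correlations across genes, which share their 6 libraries and are not replicates. The median GC content was 54.0% in the 12 RAB genes called higher, 47.7% in those not called and 49.7% over all tested genes. Of the 14 called, 11 lay above the median of the RAB genes, 49.0%. Rab11a, at 39.5%, was called higher against this trend, and Rab5a lay near the middle at 46.7%. When each library's GC trend was fitted and removed as an offset, 10 of the 14 calls were kept, 4 were lost and 1 was gained, and rho over the RAB genes became 0.31. The lost calls were Rab4a, Rab28, Rab35 and Rab40c, and the gained call was Rab14. Over all tested genes 2485 were called with this offset and 3118 without it. With that offset the log2FC of Rab11a was 1.08 (edgeR adjusted p = 9.9e-05). Rab5c had 0.87 (edgeR adjusted p = 0.000728), Rab25 had 0.53 (adjusted p = 0.00609) and Rab5a had -1.24 (adjusted p = 0.00594). Why fold changes follow GC content was not tested.

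**Figure D4:**
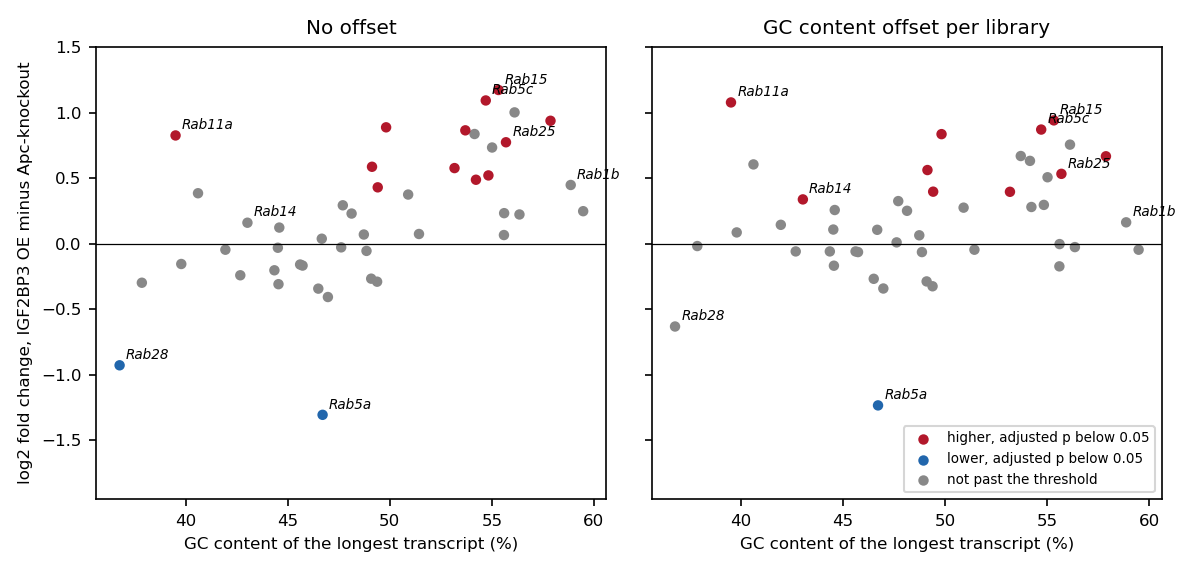
Log2 fold change of the 46 tested RAB genes against the GC content of their longest transcript, without (left) and with (right) a GC offset fitted per library; colours give the edgeR call. The points rise with GC content on the left (rho 0.62) and less so on the right (rho 0.31), where Rab11a, Rab5c, Rab25 and Rab5a keep their calls and Rab28 does not.

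The proteins that load, unload and answer to RAB proteins were followed through 8 lists with 182 tested genes. Of these, 25 were called higher and 26 lower, or 28% in all, beside 29.2% of all tested genes, and their median log2FC was -0.02. Without control replicate 1, 2 or 3 the list calls fell to 31, 29 and 24. Calls over all tested genes then fell from 3118 to 1893, 1837 and 1748. The machinery that handles every RAB, the GDP dissociation inhibitors, escort proteins and geranylgeranyl transferase, had 2 of 9 genes called, both higher, and a median of 0.40. Gdi2, the broadly expressed GDP dissociation inhibitor, had 229, 213 and 195 CPM in the controls and 280, 283 and 287 CPM in the OE-labelled libraries. The groups did not overlap, and the log2FC was 0.42 (SE 0.10, edgeR adjusted p = 0.00946). This call was lost without control replicate 2 or 3 (edgeR adjusted p = 0.054 and 0.0749). Rabac1, which aids the release of RAB proteins from the inhibitor, rose from 99.85 ± 6.25 to 146.1 ± 17.9 CPM (SD, n = 3), a log2FC of 0.55 (edgeR adjusted p = 0.00599). With the GC offset its estimate was 0.25 and did not pass (edgeR adjusted p = 0.159). It did not pass with the length offset either (0.29, edgeR adjusted p = 0.117).

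Among 41 tested exchange factor genes 6 were called higher and 6 lower, or 29.3%, near the 29.2% of all tested genes. Without control replicate 1, 2 or 3 the calls numbered 8, 6 and 6. Trappc8, a subunit of the TRAPP complexes that activate RAB1, had 26.3, 17.8 and 18.4 CPM in the controls and 4.46, 6.29 and 7.19 CPM in the OE-labelled libraries. All OE-labelled values were far below the controls, with a log2FC of -1.80 (SE 0.27, edgeR adjusted p = 0.00061). Dennd4c, an exchange factor for RAB10, also fell, with a log2FC of -1.42 (edgeR adjusted p = 0.00174). Trappc9, another TRAPP subunit, rose by 0.74 (edgeR adjusted p = 0.00364).

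Of 38 GTPase-activating protein genes, which carry the TBC domain for the most part, 3 were called higher and 4 lower. That is 18.4% in all, beside 29.2% of all tested genes. Without control replicate 2 or 3 the calls numbered 3 each. Tbc1d32, a ciliary member of the list, fell from 28.77 ± 6.46 to 9.182 ± 2.34 CPM (SD, n = 3; log2FC -1.64, edgeR adjusted p = 0.000664). Tbc1d8b fell as well (-1.63, edgeR adjusted p = 0.00394), whereas Tbc1d22a rose (0.97, edgeR adjusted p = 0.00572).

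The effectors and motor adaptors had 7 genes called higher and 14 lower among 54, or 38.9%, and a median of -0.16. Over all tested genes 16.5% were called higher and 12.7% lower, or 29.2%. The 21 calls became 14 with the GC offset, 13 with the length offset, and 13, 13 and 10 without control replicate 1, 2 or 3. Calls over all tested genes went from 3118 to 2485 with the GC offset and 2573 with the length offset. Golgb1, the giant Golgi tether known as giantin, had 335, 332 and 338 CPM in the controls and 201, 168 and 167 CPM in the OE-labelled libraries. The groups were far apart, and the log2FC was -0.91 (SE 0.11, edgeR adjusted p = 0.000177). Sytl5, a synaptotagmin-like partner of RAB27, had 28.1, 49.7 and 33.2 CPM against 13.4, 9.44 and 8.46 CPM, a log2FC of -1.82 (SE 0.26, edgeR adjusted p = 0.000476). Mical1, an actin-oxidising enzyme that binds RAB1, RAB8 and relatives, rose from 3.711 ± 0.821 to 13.89 ± 3.2 CPM (SD, n = 3), a log2FC of 1.89 (edgeR adjusted p = 0.0011).

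Of the tethers and sorting complexes, 11.1% of the exocyst genes, 20% of the HOPS and CORVET list and 33.3% of the retromer and WASH genes were called. Over all tested genes the share was 29.2%. Exoc7 was the only 1 of 9 exocyst genes called (0.58, edgeR adjusted p = 0.0111), although the list's median was -0.20. In the list of HOPS and CORVET tethers, Vps33b (1.21, edgeR adjusted p = 0.00355) and Vps11 (0.89, edgeR adjusted p = 0.015) were called higher of 10 genes. These tethers act with RAB7 and RAB5. Vps33b is a relative of a HOPS subunit, and its place in the list does not make it a part of these tethers. Retromer and its WASH partners had 3 genes higher and 2 lower of 15, among them Washc5 (0.74, edgeR adjusted p = 0.00613) and Washc1 (0.69, edgeR adjusted p = 0.0138) up and the core subunit Vps35 (-0.35, edgeR adjusted p = 0.0321) down. Of 6 RAB-like GTPases outside the name pattern, Rabl2, a ciliary protein, was called higher (0.84, edgeR adjusted p = 0.0141). With the GC offset the calls of Exoc7 (0.33, edgeR adjusted p = 0.112), Washc1 (0.44, adjusted p = 0.0945) and Vps35 (-0.07, adjusted p = 0.695) were lost, and with the length offset that of Vps35 (-0.21, adjusted p = 0.188). Leaving out single controls also ended several of these calls, and the retromer and WASH list then had 2, 3 and 1 genes called without control replicate 1, 2 and 3. Without control replicate 1 the adjusted p in edgeR was 0.0677 for Exoc7, 0.0565 for Vps11, 0.0505 for Vps35 and 0.0686 for Rabl2. Without control replicate 2 it was 0.0651 for Vps11 and 0.162 for Vps35, and without control replicate 3 it was 0.0775 for Washc1, 0.116 for Vps35 and 0.0653 for Rabl2. Removing OE-labelled replicate 2 ended the call of Exoc7 (edgeR adjusted p = 0.0569), and removing OE-labelled replicate 1 that of Vps11 (edgeR adjusted p = 0.0509). With DESeq2 the calls of Exoc7, Vps11, Washc1 and Rabl2 were lost (DESeq2 adjusted p = 0.0504, 0.0534, 0.0554 and 0.0684). Calls over all tested genes fell from 3118 to 2096 with DESeq2.

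**Figure D5:**
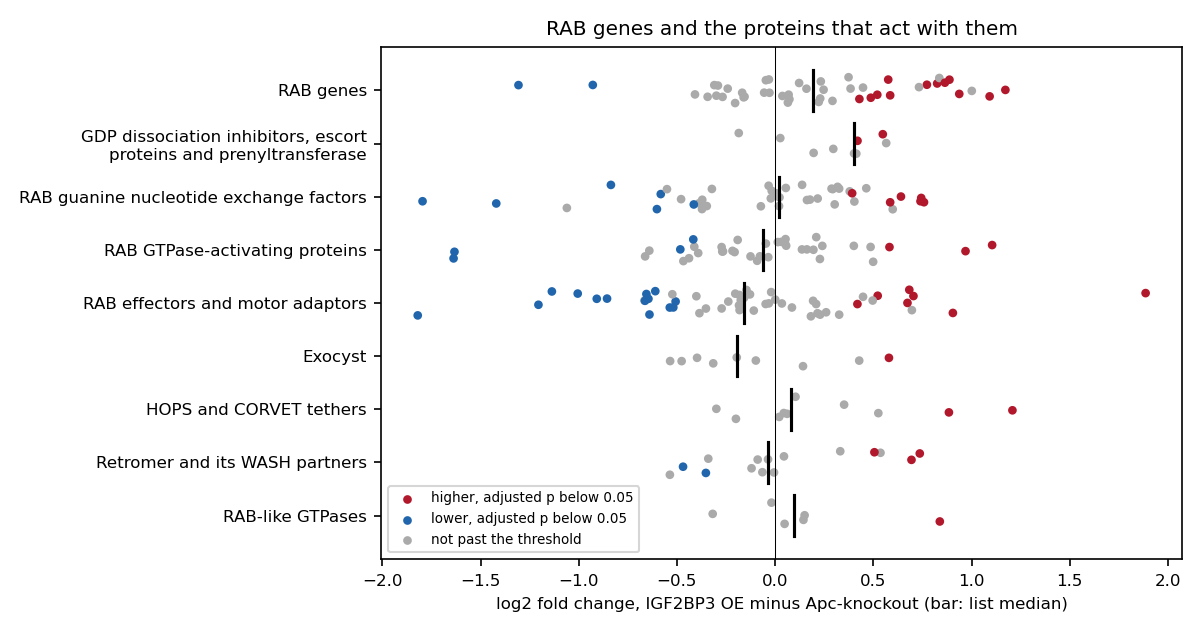
Log2 fold change of each tested gene in the RAB family and in 8 lists of proteins that act with it; black bars are list medians and colours give the edgeR call. The median is 0.19 for the RAB genes, 0.40 for the inhibitor, escort and prenyltransferase list and -0.16 for the effectors, whose calls were lower in 14 of 21 cases. Of the 3118 calls over all tested genes, 1353 were lower.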

How the data were processed

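RNA was measured in 6 libraries made with a QuantSeq 3′ forward kit, per the labels' protocols. STAR, HTSeq, mm10 and GRCm38 are named in the submitters' processing notes; the counting settings for strand and multi-mapping reads are not given in the sources used here. The deposited values are the authors' estimated counts for each gene, without normalization; 2843 values (3.09% of those above 0) were fractional, in 3 RAB genes among others, so the counts were rounded first, although whole counts had been planned for. Groups and replicate numbers came from the sample titles. Genes were kept by edgeR's filterByExpr, scaled by TMM and tested with edgeR 4.0.16 (quasi-likelihood, two-sided, no covariates, R 4.3.3), with Benjamini-Hochberg adjustment over 10687 genes and a threshold of 0.05. Intervals and standard errors come from the same test. GENCODE M21 (GRCm38) gave positions, GC content, length and coding sequences, and RefSeq gave start regions.

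Alternatives were DESeq2 1.42.0 and its size factors, limma-voom (limma 3.58.1), library totals, other filters, equal depth, no mitochondrial genes, GC and length offsets (loess span 0.5), a replicate block and leaving out each library. Unrounded counts and voom with a variance per group were added after seeing the data. RAB genes and all lists were chosen with earlier results of these data known. Values by library are given for RAB genes called, for the 6 most abundant and for the most abundant of each site of action, and from each list for up to 3 called genes with the smallest p, by library or as means or fold changes; others in the text were chosen after their values were seen. On simulated data, 200 of 10687 genes were changed by 1 on the log2 scale. Of these, edgeR recovered 74.5%, with 7.5% of its calls false, DESeq2 68% with 4.9% false and voom 73% with 5.8% false. The simulation gave both groups the same dispersion for each gene and changed only those 200 genes. In the data the biological coefficient of variation was 3.15% among controls and 17.1% among OE-labelled libraries, and 3118 genes were called. The simulated rates therefore do not carry over to this comparison. Some items are not reported here.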

Additional observations from a re-analysis of the deposited data

How the results depend on the processing

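Of the 14 RAB genes called, Rab5c, Rab11a, Rab25, Rab5a, Rab3d and Rab15 kept their call and direction under all 21 alternatives; over the 14 genes 234 of 294 values kept the call, 60 lost it and none changed sign. Among the 18 list genes named, 345 of 378 values kept the call and 33 lost it. Rab10 changed sign with library totals (0.016), the GC offset (0.11), the replicate block with GC offset (0.11) and when single libraries were left out (-0.10 to 0.01); Rab7 did with the length offset (-0.13) and without single libraries (-0.023 to 0.13). With DESeq2 the calls numbered 9 RAB genes (7 higher) and 32 list genes, and over all genes 1059 higher in place of 1765. At an adjusted p of 0.01 they were 7 RAB genes (6 higher, 1 lower), 23 list genes and 1578 genes in all. Leaving out 1 library gave 7 to 16 RAB genes (6 to 14 higher, 1 to 2 lower), 24 to 54 list genes and 1748 to 3532 genes in all; without control replicate 1, 2 or 3 the total was 1893, 1837 and 1748 and the list genes were 31, 29 and 24. With the GC offset, alone or with the replicate block, 1 RAB gene was called lower. The RAB median of 0.19 was 0.13 with the GC offset, 0.053 with the length offset, 0.11 with the replicate block and GC offset, and 0.10 to 0.17 without single libraries. The RAB share of counts was 0.0575 percentage points higher in the OE-labelled libraries, 0.0451 without mitochondrial genes and 0.0545 to 0.0625 without single libraries. The cause of these shifts was not tested. The higher part of all calls was 56.6% under TMM, 49.9% under the size factors of DESeq2 and 63.8% under library totals. After each group's mean was taken away, same-numbered replicates correlated by 0.097, 0.018 and 0.069. Replicates with other numbers correlated by -0.056, -0.004 and -0.033 on average. Deviations from a mean of 3 libraries sum to 0, so these averages largely follow from the same-number values and add little. With 3 libraries per group these values cannot tell whether the numbers pair the libraries. With the replicate block 3112 genes, 14 RAB genes and 54 list genes were called. Rab35 then lost its call (edgeR adjusted p = 0.0527) and Rab3a gained it (edgeR adjusted p = 0.0476). The RAB genes that were not tested had at most 9 counts in any library and cannot be compared at this depth.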

Other observations

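The Paneth cell list summed to 31.33 to 34.56 CPM in the controls and 57.92 to 86.51 CPM in the OE-labelled libraries, with Mmp7 its only tested gene and Lyz1, Defa17, Defa24 and Defa30 at 0 in every library. Tuft cell markers summed to 142.4 to 156.2 CPM against 182.5 to 218.6 CPM, with Avil called higher and Dclk1 not called. The immune list went from 27.68 to 34.1 CPM up to 46.08 to 55.5 CPM, with Csf1r its only tested gene and Cd3e, Cd79a and Adgre1 at 0. The neuronal and glial list went from 50.22 to 56.23 CPM up to 103.2 to 119.1 CPM, with S100b its only tested gene and Elavl4 and Snap25 at 0. Myc, the gene named in the title of the series, had 46, 67 and 54 counts in the controls, against 8, 35 and 45 counts with the OE label.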
